A study of Homo sapiens with 30 samples.

Results

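Cluster 7 of the wild-type ATAC-seq peaks is a set of 3076 regions, each 500 bp wide, out of 22974 regions that the authors placed in 9 clusters. Its members are all regions of the deposited file numbered 7 in its name; the number written inside that file is 3. The regions were examined for overlap with the lists of regions that the authors found to differ between HNF6 knockout and control cells along pancreatic differentiation, counting a shared stretch of at least 1 bp as an overlap. Cluster 7 is the second largest cluster and holds 13.4% of all cluster regions. The sources used here do not name the accessibility profile that defines it, and no marker is attached to it.

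The cells were HUES8, an established human embryonic stem cell line, either wild type (control) or lacking HNF6, and both were differentiated in vitro. HNF6, also named ONECUT1, is a homeodomain transcription factor. The 30 samples form 10 groups of 3, with control and knockout cells at each of 5 stages: the undifferentiated state (ESC), definitive endoderm (DE), the gut tube stage (GT), the pancreatic endoderm stage (PE) and, last, pancreatic progenitors (PP). All groups share the HUES8 background. How the knockout was made and from how many clones is not in the labels. Nor do they tell whether the 3 samples of each group are independent differentiations, and their spread may be technical only.

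ATAC-seq reads out open chromatin: a transposase inserts adapters where DNA is free of nucleosomes, chiefly at promoters, enhancers and insulators. As pluripotent cells become endoderm and then pancreas, enhancers of the earlier state close and those of the later one open, with pioneer factors such as FOXA and GATA proteins acting early. HNF6 acts in the foregut, liver and pancreas, where it lies upstream of endocrine and ductal genes. Genes and sequences are not given below, because no hg19 genome or annotation was used here; regions are named by hg19 position.

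In the lists as deposited, which hold from 2789 (control GT) to 24770 regions (knockout PP), the most cluster 7 regions were in the list more open in knockout cells at PP and in the one more open in control cells at ESC. The control ESC list overlapped 429 members, 13.9% of the cluster (95% Wilson interval 12.8 to 15.2), where 5.38% of all cluster regions overlapped that list. The knockout PP list overlapped 450 members, 14.6% (13.4 to 15.9), with 11.1% over all clusters. With every list shortened to 2789 regions by the authors' p, the control ESC list was highest (6.08%, other clusters 1.89%), then control GT (4.78%, others 2.14%) and knockout PP (2.83%, others 2.32%). In the full lists the control ESC share was 3.44 times that of the other 8 clusters (4.05%) and the knockout PP share 1.38 times (10.6%). Wilson intervals cover counting error only, and no test was run of one cluster against the others. The clusters are of wild-type peaks and control samples enter every list, so the clusters and the lists are not independent.

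Between these ends the side alternated. At DE the knockout list held 258 members (8.39%, background 5.69%) and the control list 105 (3.41%, background 4.99%). At GT the control list was the fuller one, with 147 members (4.78%, background 2.49%) against 69 in the knockout list (2.24%, background 1.86%). The GT control share was 2.24 times that of the other clusters.

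Few members were more open in control cells at the pancreatic stages. The control PE list overlapped 39 members, or 1.27% (0.929 to 1.73), where the background was 6.44%. At PP the control list overlapped 16, or 0.52% (0.32 to 0.843), with a background of 2.47%. These low shares were not particular to cluster 7, which ranked 7 of 9 at PE and 5 of 9 at PP. At PP clusters 2, 3, 4 and 9 had from 0.149% to 0.47%, while clusters 5 (23.9%), 6 (7.60%) and 8 (6.20%) held most of the listed regions. The knockout PE list overlapped 151 members (4.91%, background 3.97%), and the knockout ESC list 101 (3.28%, background 3.73%). For knockout ESC the interval (2.71 to 3.97) included the 3.80% of the other clusters, but with an overlap of at least 250 bp the share was 1.92% against 3.06%.

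**Figure D1:**
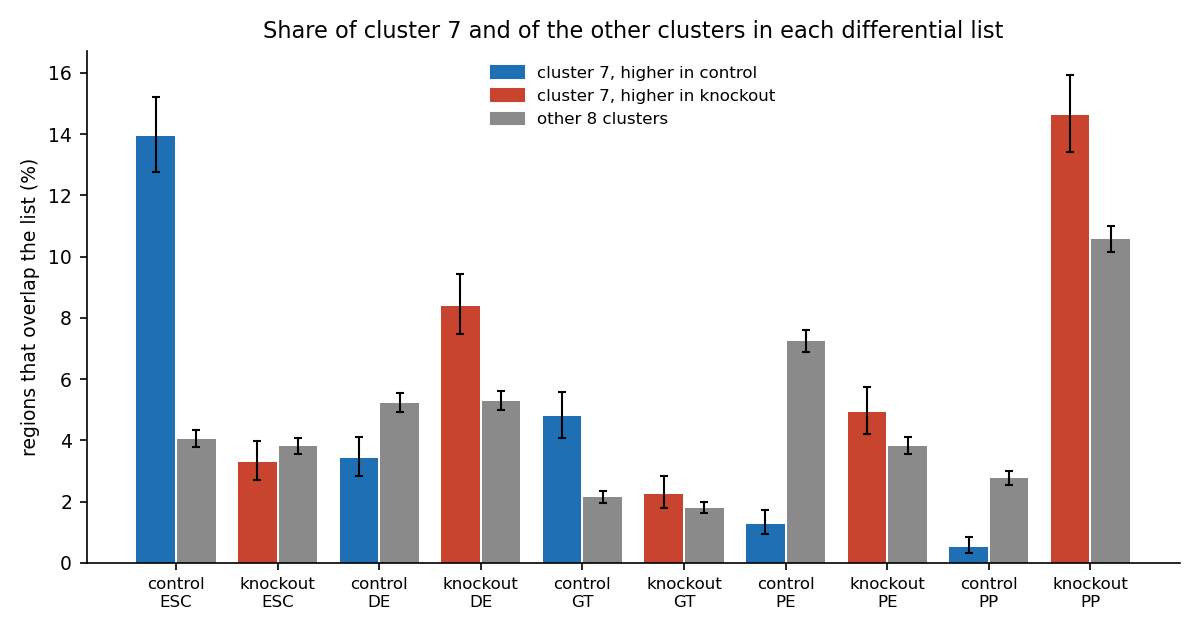
Share of cluster 7 regions (blue in control lists, red in knockout lists) and of the regions of the other 8 clusters (grey) that overlap each differential list, in percent; error bars are 95% Wilson intervals for counting error. In the lists as deposited, which differ in length from 2789 to 24770 regions, cluster 7 has 13.9% in the control ESC list, 14.6% in the knockout PP list and 0.52% in the control PP list.

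Among the 9 clusters, cluster 7 ranked second in the control ESC list, the control GT list and the knockout PP list. Cluster 1 stood above it at ESC (18.6%), cluster 3 at GT (6.66%), and cluster 8 in the knockout PP list (15.2%). Cluster 1 also had a higher share in the knockout DE list (11.8%) and a lower one in the knockout PP list (10.5%), and cluster 3 had 3.02% in the control ESC list.

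In all, 1387 members (45.1%, interval 43.3 to 46.9) overlapped at least 1 of the 10 lists, where 38.4% of all cluster regions did. The other 1689 members overlapped none, and no value for them was analysed here. Of the listed members, 1064 were in 1 list, 272 in 2, 48 in 3, 2 in 4 and 1 in 5. As shares of the cluster these were 34.6%, 8.84%, 1.56%, 0.065% and 0.033%. The other clusters had 29.2%, 6.94%, 1.03%, 0.126% and 0.005%. ESC was the stage with the most listed members, 529 in either direction (17.2%, against 7.82% in the other clusters), followed by PP with 466 (15.1% against 13.3%). PE had the fewest, 190 (6.18% against 11.1%).

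The direction of the listed differences turned at each of the first 3 steps and lay on the knockout side at both PE and PP. Of members in 1 list of a stage only, 81.1% were higher in control at ESC (428 against 100; interval 77.5 to 84.2), 28.7% at DE (103 against 256; 24.3 to 33.6), 68.1% at GT (147 against 69; 61.6 to 73.9), 20.5% at PE (39 against 151; 15.4 to 26.8) and 3.43% at PP (16 against 450; 2.12 to 5.50). The other 8 clusters together had 51.6%, 49.8%, 54.3%, 65.5% and 20.7%. At PE the 2 sets lay on opposite sides of an even split. Over all list regions, on a cluster or not, 42.6%, 37.2%, 27.0%, 56.1% and 11.3% were in the control list, so the lists themselves are uneven. Only 1 member at ESC and 2 at DE touched both lists of the same stage. These shares describe listed regions, and values were not compared across stages, because how libraries were scaled is not stated.

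**Figure D2:**
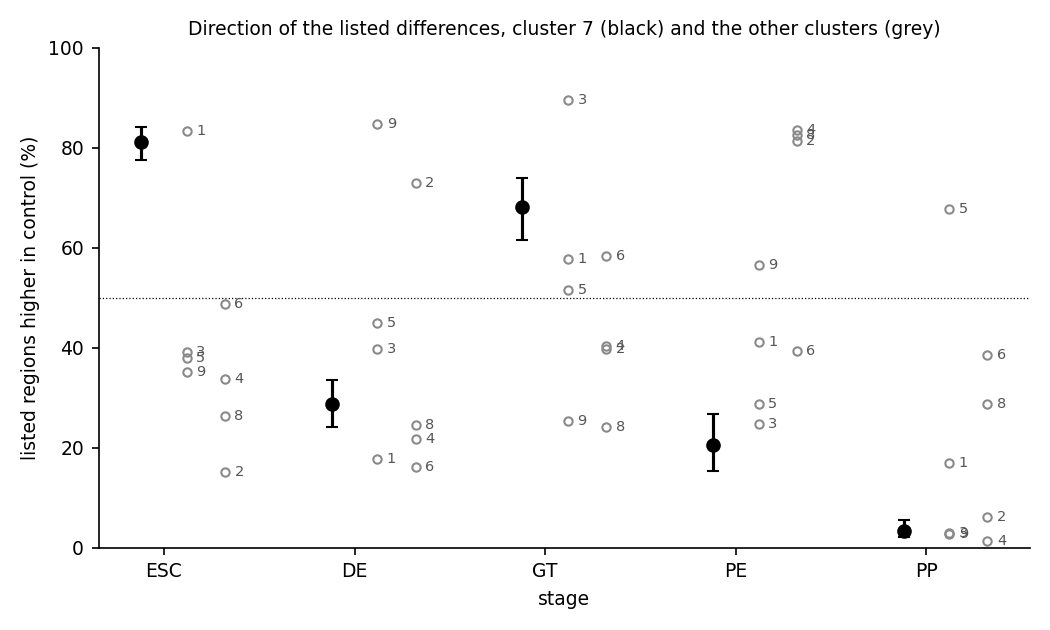
Percent of listed regions that were higher in control cells at each stage, over regions in 1 list of the stage only, for cluster 7 (black, with 95% Wilson intervals) and each other cluster (grey, numbered). Cluster 7 goes from 81.1% at ESC to 28.7% at DE, 68.1% at GT, 20.5% at PE and 3.43% at PP.

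Other clusters had similar values at single stages. Cluster 1 had 83.4% higher in control at ESC and 17.8% at DE, but 41.2% at PE and 16.9% at PP. Cluster 3 had 89.5% at GT, 24.8% at PE and 2.89% at PP, but 39.1% at ESC. Cluster 1 was thus near cluster 7 at ESC, and cluster 3 at PE and PP. Clusters 4 (21.8%) and 8 (24.6%) were near it at DE, and clusters 2 (6.12%), 4 (1.37%) and 9 (2.67%) at PP.

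The direction also differed between chromosomes. At ESC chromosome 20 had 45 members higher in control and 1 in knockout, chromosome 16 had 24 and 0, and chromosome 17 had 16 and 0. Chromosomes 4 and 6 went the other way, with 9 against 12 and 5 against 13. On each of these chromosomes the other clusters leaned to the same side. They had 63 control and 19 knockout regions on chromosome 20, 71 and 29 on chromosome 16, and 50 and 31 on chromosome 17. On chromosome 4 they had 6 and 62, and on chromosome 6 they had 11 and 89. Over the 22 chromosomes with listed members at ESC, 19 had more control members, 2 more knockout members and 1 as many of each.

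Chromosome 22 held 39 members higher in knockout at DE and 0 higher in control. Chromosome 1 had 31 against 2 at that stage, chromosome 19 had 31 against 2, and chromosome 11 had 26 against 1. In contrast, chromosome 2 had 16 members higher in control and 9 in knockout, and chromosome 5 had 11 and 4. At GT chromosome 7 alone supplied 27 of the 147 control members, with 1 on the knockout side, while chromosome 16 had 1 against 8 and chromosome 17 had 0 against 8. At PP every one of the 22 chromosomes with listed members had more on the knockout side. The other clusters had so too on every autosome but chromosome 19, and the whole PP lists held 3169 control and 24770 knockout regions.

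Regions of the other clusters on the same chromosomes often leaned the same way. On chromosome 22 at DE the other clusters had 4 regions higher in control and 112 in knockout. On chromosome 7 at GT they had 63 and 6. Chromosome 19 was a place where they parted: at PP cluster 7 had 5 control and 17 knockout members, and the other clusters 74 and 36. When the other clusters were weighted to the chromosomes of the listed cluster 7 members, their control share was 54.8%, 42.1%, 58.1%, 59.3% and 20.7% from ESC to PP. Under that weighting cluster 7 lay nearer to the other clusters at ESC, DE, GT and PE, and on the same side of them at all 5 stages. The part that the chromosome plays in the direction was not tested.

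**Figure D3:**
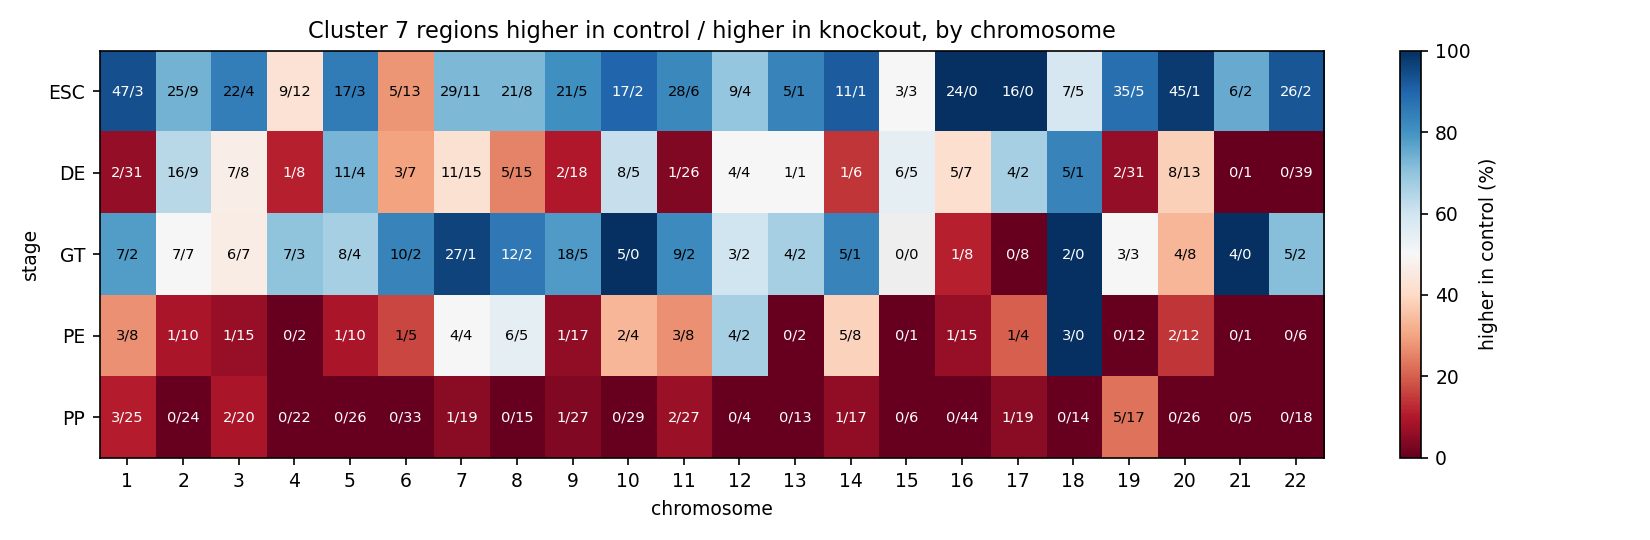
Counts of cluster 7 regions in the control and in the knockout list (first and second number in each cell) by autosome and stage; colour gives the percent higher in control, and the grey cell had none. Chromosome 22 at DE (0 against 39) and chromosome 7 at GT (27 against 1) lie at opposite ends, and the PP row is on the knockout side throughout. The other clusters, not drawn, also had more knockout regions at PP on every autosome but chromosome 19.

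Members were unevenly spread over the genome. Chromosome 19 carried 235, which is 24.3% of all cluster regions on that chromosome, chromosome 22 carried 130 (21.8%) and chromosome 7 carried 242 (20.1%). Chromosome 12 (76 members, 7.94%) and chromosome X (3 members, 3.66%) had the smallest shares. The median gap to the next cluster region was 19.7 kb for cluster 7, against 16.3 kb for cluster 1 and 67.6 kb for cluster 9. The next region belonged to cluster 7 in 27.5% of cases, to cluster 3 in 14.7% and to cluster 1 in 14.7%. Cluster 7 holds 13.4% of all cluster regions, but every cluster was followed by itself more often than its share. For cluster 9 this was 32.2% beside 20.5%, and for cluster 1 23.3% beside 9.20%.

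Members also came in runs with no other cluster's region between them. There were 182 runs of 3 or more, and the 2 longest held 11 members each. Runs of the other clusters were not counted. The first, chr1:1220205-1283781, spans 63.6 kb; the control ESC list overlapped 3 of its members and the knockout DE list 5, with 2 in the knockout PE list and 3 in none. Within it, chr1:1235396-1235895 was in both the control ESC list and the knockout DE list, and chr1:1280178-1280677 in the control ESC list and the knockout PE list. The second run, chr14:105148196-105394432, spans 246 kb, with 2 members in the control ESC list, 3 in the knockout DE list and 4 in none. The knockout GT, control PE and knockout PE lists each overlapped 1 of its members. In both runs the control list was the one touched at ESC and the knockout list at DE. Listed members of the whole chromosomes leaned the same way. On chromosome 1 they were 47 control and 3 knockout at ESC, and 2 and 31 at DE. On chromosome 14 they were 11 and 1 at ESC, and 1 and 6 at DE. A run of 7 on chromosome 19, chr19:4360586-4517393, had 4 members in each of those lists.

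Some neighbouring members were listed together because 1 list region covered both. Over 1404 pairs of neighbouring members at most 100 kb apart, the first was in the control ESC list 225 times and both were 50 times, of which 17 were the same list region. Without those 17 pairs, the next member was in the control ESC list in 15.9% of 208 cases where the first was, and in 15.2% where it was not. For the knockout PP list the 2 shares were 16.9% (of 201) and 15.6%. In the control GT list they were 7.89%, or 3 of 38, and 2.52%.

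Beside the whole lists, the listed differences on cluster 7 were small in size, and the list regions were wide, with high values. This also held for list regions on the other 8 clusters. Values are per list region and were not divided by its width here, so height and width are not told apart. In the knockout PE list the median control value on cluster 7 was 356.5, against 334 over the whole list. The median widths there were 1450 bp and 900 bp. Each list region carries 3 values per genotype, as whole numbers whose scaling is not stated, and the log2 ratio of control to knockout is taken over their means with 1 added. Its median on cluster 7 was 0.57 in the control ESC list (412 list regions, quartiles 0.47 and 0.71) and -0.77 in the knockout PP list (432 list regions, -0.93 and -0.65). Over the whole lists the medians were 0.75 and -1.08. Elsewhere the cluster 7 medians were 0.60 (control DE), 0.59 (control GT), 0.52 (control PE) and 0.75 (control PP), and -0.56 (knockout ESC), -0.53 (knockout DE), -0.55 (knockout GT) and -0.57 (knockout PE). In each of the 10 lists the median on cluster 7 was smaller in size than that of the whole list. The same held for the median on the other 8 clusters.

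In 9 of the 10 lists under 20% of the list regions on cluster 7 differed by at least 2-fold. They were 4.85% in the control ESC list (20 of 412) and 18.1% in the knockout PP list (78 of 432), against 28.0% and 56.8% of the whole lists. The control PP list had 31.2% (5 of 16) and the knockout PE list 10.4% (15 of 144), against 38.7% and 23.3% of the whole lists. None of the 95 knockout ESC list regions on the cluster reached 2-fold. Median widths were 1300 bp and 1200 bp on cluster 7 in the control ESC and knockout PP lists, against 900 bp and 700 bp over the whole lists. Regions on the other clusters had medians of 0.49 and -0.76 in the control ESC and knockout PP lists. Their share at 2-fold or more was higher than on cluster 7 in the knockout ESC list (16.6% against 0 of 95), the control DE list (26.3% against 7.84%) and the knockout GT list (21.1% against 3.08%). It was also higher in the knockout DE (4.37%), control GT (16.0%), control PE (14.4%) and knockout PP lists (22.8%). It was lower in the knockout PE list (3.02% against 10.4%), the control ESC list (3.88%) and the control PP list (20.04%).

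**Figure D4:**
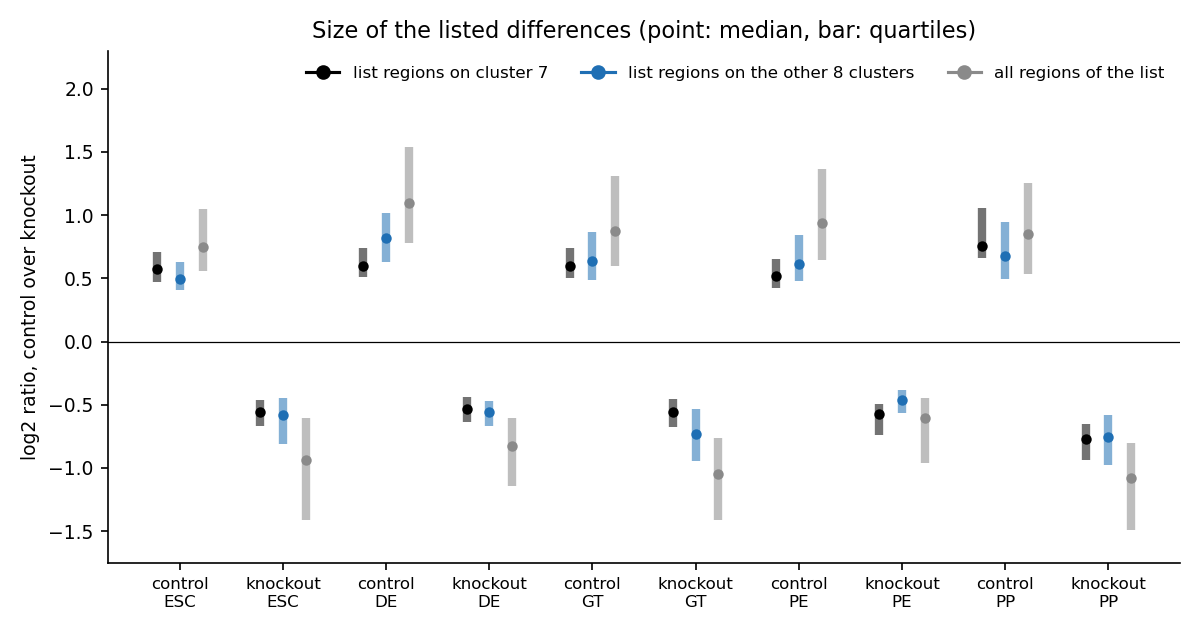
Median (point) and quartiles (bar) of the log2 ratio of control to knockout values over list regions on cluster 7 (black), on the other 8 clusters (blue) and over the whole list (grey), for each of the 10 lists. The cluster 7 medians lie between 0.52 and 0.75 in the control lists and between -0.77 and -0.53 in the knockout lists, nearer to 0 than those of the whole lists. The medians on the other 8 clusters are also nearer to 0 than those of the whole lists.

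The 3 values of one genotype lay wholly above the 3 of the other in most list regions on the cluster. This held for 67.7% in the control ESC list, where 63.2% of list regions on any cluster were so separated, and for 81.5% in the knockout PP list (background 78.9%). The knockout PE list had 81.3% against a background of 68.5%. The other shares were 75.8% (knockout ESC, background 75%), 73.5% (control DE, 77.0%), 72.0% (knockout DE, 72.5%), 79.2% (control GT, 80.4%), 72.3% (knockout GT, 78.0%), 78.9% (control PE, 74.5%) and 81.3% (control PP, 84.4%). The lists had been selected for a difference, so these shares are a description. An exact permutation test of 3 values against 3 cannot give a two-sided p under 0.1 for a single region.

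Within a genotype the 3 values differed in height. Over list regions on cluster 7 the median value as a percent of its group mean ran from 91.7% to 109% among control values at ESC and from 92.9% to 113% among knockout values at PP. In the other 8 groups it stayed between 93.1% and 110%.

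In control cells the listed members were neither the highest nor the lowest of the clusters. Per kb of list region, the median control value on cluster 7 was 399 at ESC, which ranked 4 of 9, where cluster 1 had 666 and cluster 2 had 119. It ranked 4 at GT (254), where cluster 6 was highest (333). At PE it ranked 8 (282, with cluster 6 at 708) and at PP 7 (158, with cluster 6 at 515). These medians cover listed regions of both directions and leave out members with no list region.

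The leading members of the control ESC list, by the authors' p, lay on chromosomes 12 and 20. At chr12:57629889-57630388 the list region, 4100 bp wide, had values of 3193, 2210 and 1748 in control against 1655, 1475 and 1440 in knockout cells. All 3 control values lay above the knockout values, but they spread from 1748 to 3193, and the log2 ratio was 0.65. At chr20:30194944-30195443 the values were 3292, 3035 and 2475 against 2191, 2133 and 1777 (log2 ratio 0.53). The third, chr20:30433082-30433581, had 2985, 3010 and 2131 against 1751, 2127 and 1849 (0.50). In this region the lowest control value (2131) stood just above the highest knockout value (2127).

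On the other side at ESC, chr6:163836275-163836774 had 416, 641 and 715 in control against 771, 1153 and 1315 in knockout cells, a log2 ratio of -0.87. This member was in the knockout lists at PE and PP too. It was followed by chr4:107956785-107957284, with 904, 827 and 883 against 1453, 1372 and 1170 (-0.61), where the genotypes were well apart and the control values close together. The third, chr21:22369979-22370478, had 545, 379 and 534 against 670, 736 and 966 (-0.70).

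A DE difference with little spread in either genotype was at chr15:65099226-65099725, with 958, 961 and 900 in control against 585, 593 and 621 in knockout cells (log2 ratio 0.65). This member was in the control ESC list as well. Its list region covers 275 bp of it. The other leading members were chr17:19288127-19288626, with 1068, 1621 and 1206 against 904, 798 and 950 (0.55), and chr7:20816337-20816836, with 1052, 1043 and 1284 against 799, 706 and 785 (0.56).

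Among members higher in knockout at DE, chr12:50276440-50276939 had 1047, 1071 and 1077 in knockout against 722, 695 and 632 in control cells (-0.64), with knockout values close together. It was in the knockout PP list too. At chr1:19680044-19680543 the knockout values were 624, 768 and 803 against 502, 341 and 444 (-0.77), and the member was in the control ESC list, so the sides were exchanged between the 2 stages. Among knockout DE list regions on cluster 7, the one with the highest -log10 p in the authors' deposited table touches its member, chr3:138178463-138178962, over 12 bp only. Its knockout values of 753, 296 and 577 were uneven, beside 281, 268 and 288 in control. The member was in the control ESC list as well.

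The leading GT members higher in control were on chromosomes 11 and 7. At chr11:27721294-27721793 the values were 623, 627 and 444 in control against 336, 269 and 347 in knockout cells (0.83), and the member turned up in the knockout list at PP. Chromosome 7, which carried 27 control members at this stage, supplied chr7:14029507-14030006 with 1115, 1097 and 1006 against 753, 664 and 740 (0.58). That member was in the knockout ESC list and the control DE list as well. Chromosome 7 also supplied chr7:116963945-116964444 with 534, 451 and 534 against 276, 313 and 251 (0.85). In all 3 the genotypes did not overlap.

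On the knockout side at GT, a single list region of 1900 bp on chromosome 20 covered the whole of chr20:33153808-33154307 and 43 bp of chr20:33155658-33156157. Its values were 731, 652 and 601 in knockout against 355, 430 and 426 in control cells (-0.71). The third member, chr16:57798647-57799146, shared 104 bp with its list region, which had 1295, 1106 and 1324 against 1058, 676 and 933 (-0.48).

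At PE the leading member higher in control was chr20:614972-615471, with 788, 976 and 1486 in control against 661, 767 and 662 in knockout cells (0.64). It was followed by chr20:21082790-21083289, also in the control DE list, with 1585, 1837 and 2030 against 1472, 1087 and 1418 (0.45). In both, the lowest control value stood only a little above the highest knockout value. Higher in knockout were chr16:89788832-89789331, with 2261, 2911 and 2391 against 2237, 1903 and 1514 (-0.42), and chr20:32273013-32273512, with 1371, 1653 and 1616 against 1143, 1200 and 906 (-0.51). The third, chr6:31657268-31657767, was the one leading member whose genotypes overlapped: its knockout values were 1111, 1054 and 716 and its control values 665, 466 and 723 (-0.64).

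The strongest relative differences among the leading members were at PP. At chr9:133987237-133987736, one of the 16 members higher in control at that stage, the values were 353, 499 and 333 in control against 166, 103 and 158 in knockout cells. This is a log2 ratio of 1.47, or 2.76-fold, in a list region of 750 bp. The next, chr17:27436584-27437083, shares 167 bp with its list region, which had 828, 912 and 796 against 556, 528 and 422 (0.75). At chr11:66313987-66314486 the values were 1563, 1645 and 1629 against 1155, 1181 and 1249 (0.43), a small difference with little spread.

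Higher in knockout at PP, chr6:33749237-33749736 had 626, 342 and 379 in knockout against 196, 221 and 141 in control cells (-1.27, or 2.41-fold). At chr10:47004057-47004556 the values were 3006, 2148 and 2433 against 1818, 1865 and 1413 (-0.57). At chr10:43745652-43746151 they were 1220, 523 and 716 against 387, 480 and 476 (-0.87). In this last region 1 knockout value was far above the other two, and the lowest knockout value was close to the control range. Of the 30 leading members, 3 per list, 29 had genotypes that did not overlap, 2 reached 2-fold, and the fold ranged from 1.34 to 2.76. They were picked by the authors' p, which favours such separation. Among list regions on any cluster, from 63.2% (control ESC) to 84.4% (control PP) were so separated. The 2 knockout GT members on chromosome 20 share 1 list region, which is counted for each.

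Of the pairs of lists from different stages, control ESC and knockout PP had the most members in common. They shared 66, of which 49 were in no other list, where 0.766% of all cluster regions were in both lists. As a share, 15.4% of the control ESC members were in the knockout PP list, beside 14.6% of all cluster 7 members, and it was 14.7% of the knockout PP members. The 42 members common to knockout DE and knockout PP (background 0.831%) were 16.3% of the DE members and 9.33% of the PP members. The 21 common to control GT and knockout PP (background 0.383%) were 14.3% of the GT members and 4.67% of the PP members. Knockout PE and knockout PP shared 27 (background 0.884%), 17.9% of the PE members and 6% of the PP members. The shares of the ESC, DE, GT and PE members lay near the 14.6% of all cluster 7 members that were in the knockout PP list.

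Control ESC and knockout DE shared 53 members (background 0.779%). These were 12.4% of the control ESC members and 20.5% of the knockout DE members, beside 8.39% and 13.9% of all cluster 7 members. In the other clusters 15.6% of control ESC regions were in the knockout DE list, beside 5.28% of all their regions. Control ESC and knockout PE shared 23 members (background 0.414%), 5.36% of the control ESC members beside 4.91% of the cluster.

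The values of the genotypes were fully apart at 2 stages or more in 199 members (6.47%), where 4.89% of all cluster regions were (background). In 119 of them (3.87% of the cluster, background 2.34%) the directions were opposite at some pair of stages, which is 59.8% of the 199, against 45.2% of 925 regions in the other clusters. There were 39 members higher in control at ESC and in knockout at PP and 0 the other way round, against 50 and 8 in the other clusters. With 16 control and 450 knockout members at PP, the lists leave little room for the reverse order. Higher in control at ESC and in knockout at DE were 23 members, against 5 in the opposite order (62 and 23 in the other clusters). At GT and PP the numbers were 15 and 0 (41 and 5). The lists leave less room for these reverse orders too, with 429 control and 101 knockout members at ESC. At DE they held 105 and 258, and at GT 147 and 69. In the same direction, 26 members were higher in knockout at both DE and PP and 19 at both PE and PP, while 1 member was higher in control at both ESC and PP.

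The member listed at all 5 stages was chr6:94128304-94128803. At ESC its list region had 1630, 1826 and 1497 in knockout against 1194, 1242 and 1243 in control cells (log2 ratio -0.43). At GT the control values were the higher ones, 1126, 953 and 1072 against 833, 770 and 768 (0.41). At PP the knockout values were higher again, 677, 571 and 858 against 531, 519 and 415 (-0.52). The genotypes were apart at these 3 stages and overlapped at DE (1398, 1052 and 852 in control, 849, 926 and 792 in knockout) and at PE (674, 854 and 785 in control, 1002, 799 and 1215 in knockout).

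The member in lists of 4 stages, chr5:149500113-149500612, was higher in control early and in knockout late. Its values overlapped between genotypes at ESC (control 377, 371 and 442, knockout 215, 192 and 399), at DE (361, 628 and 422 against 233, 342 and 403) and at PE (403, 452 and 205 against 597, 389 and 527). They were apart at PP, with 442, 382 and 499 in knockout against 296, 213 and 205 in control cells (-0.89); that list region shares 188 bp with the member.

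At 3 stages, chr3:194208180-194208679 had its DE list region higher in control, with 410, 472 and 331 against 283, 148 and 218 (0.90). Its GT region was higher in knockout, with 318, 286 and 317 against 176, 171 and 155 (-0.87). At PE it was higher in knockout as well, with 1266, 1120 and 1603 against 1005, 861 and 921 (-0.52). All 3 sets were apart. The DE list region shares 179 bp with the member and the GT and PE regions all 500 bp.

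At chr16:84077604-84078103 the ESC list region had 284, 279 and 238 in control against 119, 199 and 149 in knockout cells (0.77). The PP list region had 656, 792 and 1068 in knockout against 401, 589 and 523 in control cells (-0.73), and the PE region, which touches the member over 47 bp, had 1293, 923 and 860 against 818, 776 and 702 (-0.42). The member thus passed from the control to the knockout side, as chr1:19680044-19680543 did between ESC and DE.

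Around chr7:150811385-150811884 the ESC lists meet. The control ESC list region, which ends inside the member, had 866, 810 and 768 in control against 533, 640 and 619 in knockout cells (0.45). The next base starts a knockout ESC list region with 494, 1137 and 1000 in knockout against 552, 463 and 801 in control cells (-0.53), where the genotypes overlapped. At DE the knockout was higher (642, 545 and 518 against 330, 427 and 359; -0.61) and at GT the control (534, 726 and 545 against 393, 350 and 522; 0.51).

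A pair of neighbouring members on chromosome 10 was higher in control at several stages. One list region at PE, chr10:43698201-43701050, covers both chr10:43698587-43699086 and chr10:43700355-43700854, with 1291, 1445 and 1388 in control against 892, 770 and 1198 in knockout cells (0.53). The first of the pair was also higher in control at GT, with 1096, 1049 and 1196 against 825, 930 and 731 (0.43), and at DE, where the genotypes overlapped (1373, 971 and 1058 against 799, 980 and 941). The second was in the control GT list by 54 bp (603, 425 and 669 against 315, 375 and 463) and turned at PP, with 509, 410 and 445 in knockout against 354, 304 and 227 in control cells (-0.62). In contrast, chr6:163836275-163836774, given above for ESC, was higher in knockout at all 3 of its stages: at PP it had 844, 973 and 1147 against 712, 674 and 548 (-0.62), and at PE 865, 1067 and 1394 against 1085, 719 and 702 (-0.41), with overlap.

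**Figure D5:**
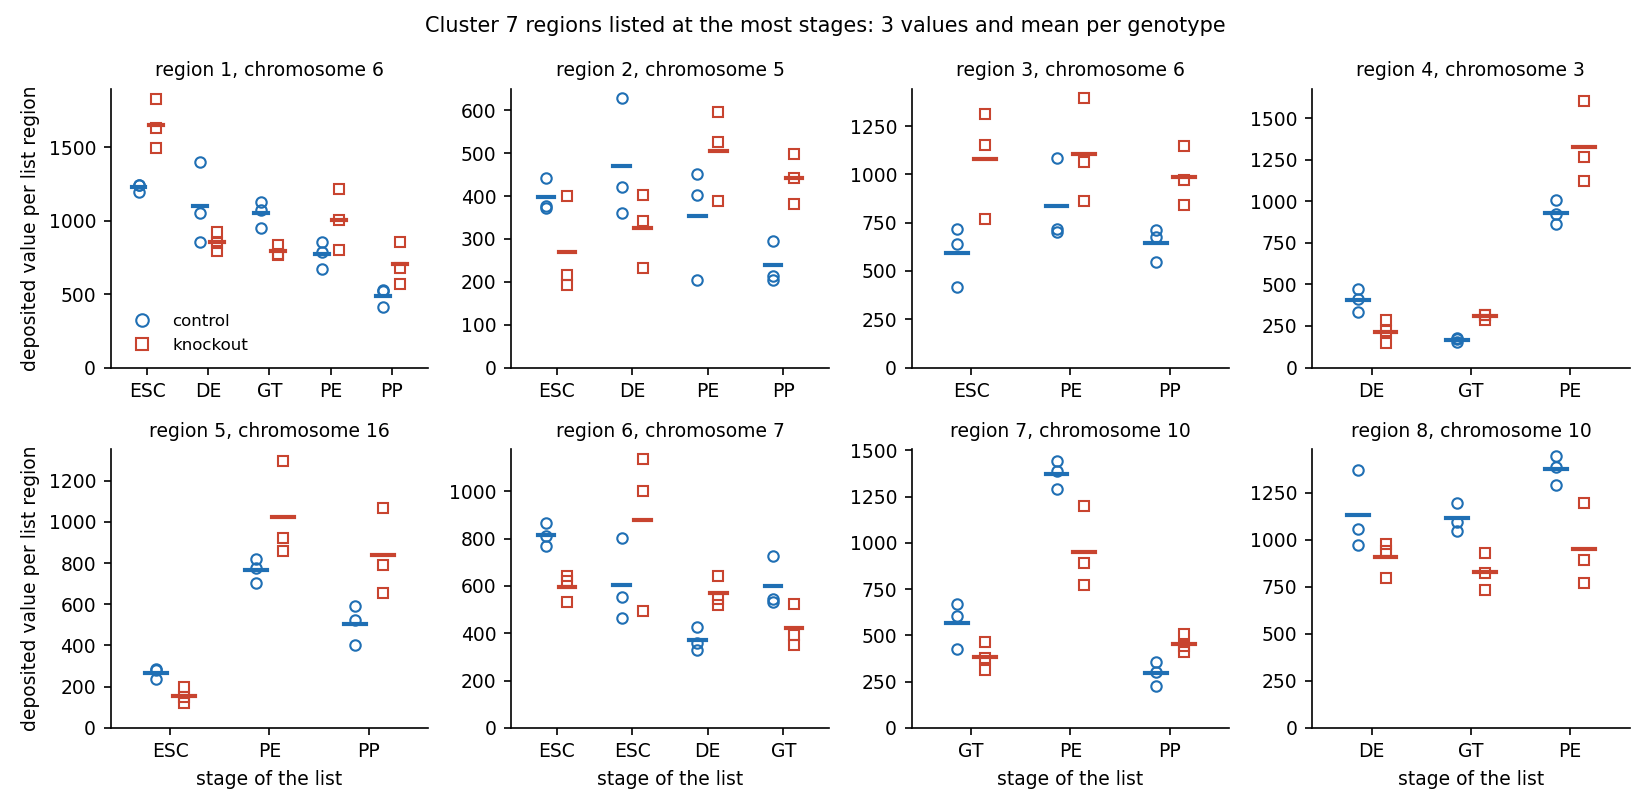
The 3 deposited values (points) and their mean (line) in control (blue circles) and knockout cells (red squares) for the list regions on the 8 cluster 7 members listed at the most stages; the value axis is linear and starts at 0, and list regions differ in width between stages. Region 1 is the member listed at all 5 stages, and region 6 has both an ESC list region higher in control and one higher in knockout. Regions 7 and 8 share their PE list region.

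List regions are wider than the cluster regions, so a value is not always that of the member alone. In the control ESC list 69.2% of the 429 members lay wholly inside a list region, and 22 had under 250 bp in common with it. In the knockout ESC list 39.6% lay wholly inside and 42 of 101 shared under 250 bp. Of the 412 control ESC list regions on cluster 7, 47 (11.4%) also touched a region of another cluster, and of the 432 knockout PP list regions 42 (9.72%) did. The control PE list had the largest such share, 31.6% of 38.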

How the data were processed

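The deposited data are 9 lists of wild-type regions and 10 lists of differential regions from 30 ATAC-seq samples. Bowtie2, MACS2 and the hg19 build are named in the submitters' processing notes, with no versions or roles. The sources used here do not name the differential caller, the clustering method, the scaling of libraries or whether reads were shifted for the transposase, and the depth of each sample is unknown. Each differential region carries a log2 ratio, 2 sets of 3 whole numbers and a -log10 p, all deposited by the authors; the log2 ratio was recomputed from the means with 1 added. The second set is higher in every region of the control lists and the first in every region of the knockout lists, so they were read as control and knockout. The columns carry no sample names. Overlaps, shares with 95% Wilson intervals (scipy 1.17.1), medians and counts were computed in Python 3.11.15 with pandas 2.3.3; the overlap code was tested on simulated lists and against a direct search (0 disagreements in 3040 checks on chromosome 21).

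Named regions are the 3 members of each list with the highest authors' -log10 p, and the 8 members in lists of the most stages (ties by the summed -log10 p). Runs, neighbours and chromosomes named in the text were chosen after their values were seen. The members and the comparisons were chosen with earlier results of these data known. Alternatives were a 250 bp overlap, list regions at or above each list's median -log10 p, list regions whose values do not overlap, autosomes, 1 region per 100 kb, lists of equal length, each value left out in turn, a pseudocount of 10 and a centred ratio. Chromosomes 7, 20 and 22 were left out, one at a time, as an alternative chosen after seeing the data. Planned counts of motifs and nearby genes were not run, since they need an hg19 genome or annotation.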

Additional observations from a re-analysis of the deposited data

Results flagged for a closer look

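In 5 of the 8 members listed at the most stages, the only ones examined at each of their stages, the 3 values of one genotype lay wholly above the other at several stages, with opposite directions between stages. Choosing members by the number of stages favours this, so the count does not stand for the cluster. Over the whole of cluster 7, 3.87% of members had values apart in opposite directions, beside 2.34% of all cluster regions. The difference between stages was not tested, and each log2 ratio of control to knockout comes from that stage's own list region. The member chr6:94128304-94128803 had -0.43 at ESC, 0.41 at GT and -0.52 at PP. For chr3:194208180-194208679 the ratio was 0.90 at DE, -0.87 at GT and -0.52 at PE. The values at chr16:84077604-84078103 were 0.77 at ESC, -0.42 at PE and -0.73 at PP, where the PE list region shares only 47 bp with the member. At chr7:150811385-150811884 they were 0.45 at ESC, -0.61 at DE and 0.51 at GT. That member also touches a knockout ESC list region with a ratio of -0.53, whose genotypes overlapped, so both directions are listed at ESC. At chr10:43700355-43700854 the ratio was 0.53 at PE and -0.62 at PP.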

How the results depend on the processing

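No paired analysis was possible because the deposited value columns carry no replicate numbers. In each of the settings tried for the shares, cluster 7 stood above the other 8 clusters in the same number of lists (6 of 10), and no list changed sides. One of these, knockout GT, was close to level: 2.24% against 1.80% in the full list. With list regions at or above the median -log10 p it was 0.975% against 0.970%. Shorter or stricter lists lowered the shares by construction. With list regions at or above the median -log10 p only, they were 8.62% (control ESC), 1.89% (knockout ESC), 1.82% (control DE), 5.36% (knockout DE), 2.96% (control GT), 0.975% (knockout GT), 0.488% (control PE), 2.63% (knockout PE), 0.293% (control PP) and 9.01% (knockout PP). With list regions whose genotypes did not overlap, they were 9.46% (control ESC), 2.57% (knockout ESC), 2.50% (control DE), 5.98% (knockout DE), 3.87% (control GT), 1.59% (knockout GT), 4.03% (knockout PE) and 11.96% (knockout PP). With lists as long as the shortest, they were 6.08% (control ESC), 1.24% (knockout ESC), 1.50% (control DE), 2.73% (knockout DE), 4.78% (control GT), 0.878% (knockout GT), 0.455% (control PE), 2.63% (knockout PE), 0.488% (control PP) and 2.83% (knockout PP), so that control GT stood above knockout PP and control PE was lowest. An overlap of 250 bp gave 1.92% (knockout ESC, other clusters 3.06%), 6.86% (knockout DE), 1.63% (knockout GT), 4.03% (knockout PE) and 11.8% (knockout PP). Keeping 1 region per 100 kb gave 12.3% (control ESC), 7.14% (knockout DE) and 4.19% (knockout PE), and leaving out chromosome 22 gave 7.43% for knockout DE.

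The share higher in control was 87.3% at ESC with 250 bp, 35.2% at DE with 1 region per 100 kb and 75.2% at GT with the stricter p. Of the control ESC members, the part in the knockout DE list was 9.34% with 250 bp, 8.30% with the stricter p and 7.90% with genotypes that did not overlap. Their part in the knockout PP list was 11.3% with 250 bp and 9.43% with the stricter p, and their part in the knockout PE list 2.26% with the stricter p. Under the stricter p 9.09% of knockout DE and 8.79% of control GT members were in the knockout PP list, and of knockout PE members 11.1%, or 12.1% with 250 bp.

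Centring the log2 ratio on the median of both lists of a stage moved all 10 medians, by construction, since that median lies inside the longer list. They became 1.05 (control ESC), -0.076 (knockout ESC), 1.17 (control DE), 0.041 (knockout DE), 1.43 (control GT), 0.28 (knockout GT), 0.038 (control PE), -1.05 (knockout PE), 1.75 (control PP) and 0.23 (knockout PP), so the sign turned in the knockout DE, GT and PP lists. Leaving out each value in turn kept the medians between 0.47 and 0.80 in the control lists and between -0.82 and -0.45 in the knockout lists. The per-list ranges were 0.49 to 0.64, 0.58 to 0.65, 0.59 to 0.63, 0.47 to 0.55 and 0.76 to 0.80 in control lists from ESC to PP, and -0.58 to -0.51, -0.58 to -0.45, -0.62 to -0.47, -0.62 to -0.54 and -0.82 to -0.67 in knockout lists. None of 336 such values of named regions turned in sign. Where the 3 values of one genotype lay wholly above the other, this was so by construction. That held for 29 of the 30 leading members and 19 of 28 list entries of members at the most stages. Depth is unknown, so its limit on small differences could not be set.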
